A study of Homo sapiens with 6 samples.

Results

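The genes described here are the protein-coding genes of human chromosome 9 that begin below 33 Mb, apart from 6 left out by name (KCNV2, RPS6, CDKN2A, CDKN2B, ELAVL2 and NDUFB6). They number 104 of 110 such genes, of 19942 protein-coding genes and of 60612 genes in the deposited table. The rule takes them by position and not by any measured value, although it was set with earlier results of these data known. A working name placed them in the outer portion of the short arm. In the table's own coordinates the limit of 33 Mb lies at 76.3% of the way from the telomere to the long stretch without genes that begins at 43.2 Mb, so the set takes in most of the arm and is called here chromosome 9 below 33 Mb. Distance was measured from CDKN2B-AS1, at chr9:21994139-22128103 (GRCh38), as the gap between the spans of the genes.

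RNA was measured in SH-SY5Y, an established human neuroblastoma line, as 3 libraries of cells infected with a control vector (titled stuffer) and 3 of cells infected with a vector labelled as CDKN2B-AS1 overexpression. Column tags that no label explains (LVx1 for every control vector library, LVx2 for every labelled overexpression library) go with the groups, so whatever they stand for cannot be told apart from the treatment. No label gives a time after infection, a promoter or a clone. Nor do the labels say whether replicate libraries stem from different cultures, and the p-values then capture library-to-library spread alone, possibly technical. Values are FPKM, that is, fragments scaled to gene length and to the library's total.

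CDKN2B-AS1 itself was at 0.272, 0.288 and 0.191 FPKM with the control vector and at 0.338, 0.304 and 0.353 FPKM under the overexpression label. The groups did not overlap. The control vector mean was 0.250 ± 0.0522 FPKM and the mean under the overexpression label 0.332 ± 0.0252 FPKM (SD, n = 3 for both), 1.33 times as high, with an exact two-sided permutation p of 0.1, the smallest that 3 against 3 can give. In limma its log2 fold change was 0.15 (95% interval -0.51 to 0.81, adjusted p 0.834). The labels do not say which CDKN2B-AS1 sequence the vector carries, so how much of its RNA falls in the annotated exons behind these values is unknown. CDKN2B-AS1 also shares 162 exon bases with the clone-named gene ENSG00000264545, which held 5.62 to 9.68 FPKM. Reads from those bases cannot be assigned to either gene, which limits the values of CDKN2B-AS1 as well. The comparisons that follow are between libraries as labelled. Depth ran from 20466583 to 48996425 fragments per library. Genes of at least 1 FPKM numbered 13530 to 13754 with the control vector and 13913 to 13965 under the overexpression label, without overlap, and the part of this difference in the results was not tested. On the second principal component over the tested genes, control vector library 3 was far from the rest, at -40.6 against -4.86 to 17.8 for the other libraries. Of 9 markers of adrenergic neuroblastoma, 8 reached the level for testing (all but TH), with summed levels of 1079 to 1215 FPKM and 1140 to 1216 FPKM. Among immune markers PTPRC and CD3E were at 0 in every library, and fibroblast markers summed to 30.8 to 46.5 and 34.4 to 45.4 FPKM. Since these are bulk samples, fewer cells of a type and less RNA per cell cannot be told apart.

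The short arm of chromosome 9 carries the cluster of type I interferon genes, antiviral cytokines that most cells keep silent until a sensor detects viral nucleic acid. Beside it lie MTAP and the cell cycle inhibitors CDKN2A and CDKN2B, a stretch that many tumours delete. CDKN2B-AS1, also called ANRIL, runs through that stretch and has been described as acting on the neighbouring inhibitors in cis through Polycomb complexes. The genes around it are ordered here by their distance from it. No label says where in the genome the vector's RNA is made. Distance from this locus therefore does not measure action of that RNA in cis.

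Genes within 2 Mb of CDKN2B-AS1 ranged from well measured to listed at 0, and promoters are shown to set silent neighbours beside a measured one. Printed are the 3 members there outside the interferon cluster whose 250 bases upstream of the RefSeq start hold no annotated exon base, and IFNA2 as an example of the cluster. They are HACD4, a fatty acid elongation dehydratase listed at 0 (chr9:21031641-21031890, minus strand), KLHL9, an adaptor of a cullin ubiquitin ligase that was measured well (chr9:21335405-21335654, minus strand), IFNA2, an interferon listed at 0 (chr9:21385399-21385648, minus strand), and DMRTA1, a DM-domain transcription factor listed at 0 (chr9:22446574-22446823, plus strand). Sequences are from RefSeq on GRCh38.p14, 5′ to 3′ on the gene's strand, and capitals mark CG dinucleotides.
HACD4: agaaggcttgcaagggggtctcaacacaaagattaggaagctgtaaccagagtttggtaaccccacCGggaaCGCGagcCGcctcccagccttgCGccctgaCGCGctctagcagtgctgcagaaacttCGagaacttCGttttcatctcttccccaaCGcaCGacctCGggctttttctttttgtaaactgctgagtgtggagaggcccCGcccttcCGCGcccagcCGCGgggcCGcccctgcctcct
KLHL9: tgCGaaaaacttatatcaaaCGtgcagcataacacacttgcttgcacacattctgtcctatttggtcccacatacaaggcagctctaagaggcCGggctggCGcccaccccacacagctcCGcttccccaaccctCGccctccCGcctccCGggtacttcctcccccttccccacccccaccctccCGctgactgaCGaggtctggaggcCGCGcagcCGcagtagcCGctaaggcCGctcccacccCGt
IFNA2: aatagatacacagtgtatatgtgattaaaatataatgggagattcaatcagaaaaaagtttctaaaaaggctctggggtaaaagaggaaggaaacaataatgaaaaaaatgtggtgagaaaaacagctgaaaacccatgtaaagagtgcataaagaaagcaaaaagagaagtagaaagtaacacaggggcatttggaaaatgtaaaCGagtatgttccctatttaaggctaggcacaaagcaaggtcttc
DMRTA1: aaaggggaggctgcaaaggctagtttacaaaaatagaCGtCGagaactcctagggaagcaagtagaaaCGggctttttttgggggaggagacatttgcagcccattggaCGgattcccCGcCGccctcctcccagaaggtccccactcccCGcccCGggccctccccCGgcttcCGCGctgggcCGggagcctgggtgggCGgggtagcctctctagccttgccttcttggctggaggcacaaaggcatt
The counts of CG in these sequences were 18 for HACD4, 16 for KLHL9, 1 for IFNA2 and 13 for DMRTA1. RefSeq promoters were matched for 93 of the 104 genes. The same 250 bases held a median of 18 CG (range 0 to 36) in the 41 matched members that were tested, 22 (0 to 41) in the 25 below the level for testing, 1 (0 to 5) in 14 interferon genes and 12 (0 to 36) in the 13 other members listed at 0, against 11 (0 to 67) over all 35116 promoters of the table. The interferon promoters were thus poor in CG, whereas HACD4 and DMRTA1 were listed at 0 with counts close to that of KLHL9. These counts describe the reference sequence and draw nothing about methylation, which was not measured. The figure over all promoters was not limited to protein-coding genes or to 1 promoter per gene, whereas each matched member counted with 1 promoter.

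Along the 33 Mb, 46 of 104 genes (44.2%) reached 1 FPKM in at least 3 of the 6 libraries and were tested, 26 (25%) were detected below that level, and 32 (30.8%) were listed at 0 in every library. Over all protein-coding genes the shares were 52.6% tested and 18.6% listed at 0, and over the 663 protein-coding genes of the rest of chromosome 9 they were 57.5% and 13.9%. Of the 32 genes at 0, 17 were the interferon genes: IFNB1, IFNW1, IFNE, IFNK and 13 IFNA genes. The others were DOCK8, KANK1, DMRT1, DMRT2, DMRT3, INSL4, PDCD1LG2, TPD52L3, CER1, SH3GL2, HACD4, DMRTA1, IZUMO3, LRRC19 and TEK. A listing of 0 allows up to 3 fragments in a library, which over these genes and libraries is between 0.0031 and 0.199 FPKM. For HACD4 that limit was 0.00668 to 0.0160 FPKM, and for IFNB1, a shorter gene, 0.0730 to 0.175 FPKM (counting error only).

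**Figure D1:**
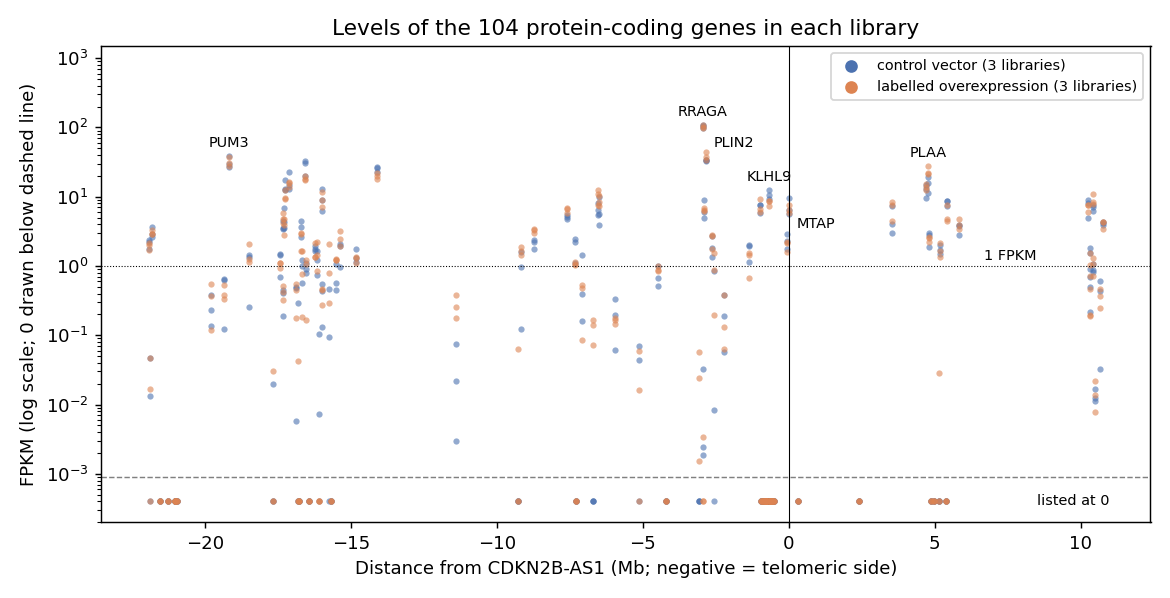
FPKM on a log axis of the 104 genes in each of the 6 libraries, by distance from CDKN2B-AS1 in Mb, with the telomeric side negative; genes listed at 0 are drawn below the dashed line. RRAGA stands highest near 100 FPKM, 46 genes were tested, and the cluster of zeros just left of the vertical line is 16 interferon genes and HACD4.

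The 4 highest members, by mean over all libraries, were RRAGA, PLIN2, PUM3 and PLGRKT. RRAGA, the RagA GTPase that brings amino acid supply to mTORC1, held 109, 99.4 and 105 FPKM with the control vector and 100.4, 99.3 and 108 FPKM under the overexpression label. The groups overlapped, and the 95% interval of the log2 fold change ran from -0.24 to 0.18, the narrowest of the tested members. PLIN2, the coat protein of lipid droplets, held 33.9, 33.1 and 33.4 FPKM against 37.6, 33.7 and 44.3 FPKM, with overlap. PUM3, a nucleolar RNA-binding protein of the Pumilio family, held 29.4, 26.9 and 38.8 FPKM against 28.1, 30.3 and 37.1 FPKM.

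No member passed the test between the groups. By limma with Benjamini-Hochberg adjustment over 13984 genes, 0 of 46 had an adjusted p under 0.05, where 1.14% of all tested genes did (0.529% higher and 0.608% lower under the overexpression label), and the smallest adjusted p was 0.157 (PLAA). At an unadjusted p under 0.05 there were 8 members (17.4%), against 17.7% of all tested genes, and limma-voom on fragments recovered from the FPKM also called 0. All libraries of one group exceeded all of the other in 7 members (15.2%), below the 24.1% over all tested genes. Of these, 5 were higher under the overexpression label (PLAA, MPDZ, UHRF2, TOPORS and NFIB; 14.2% of all tested genes were) and 2 lower (KLHL9 and DMAC1; 9.9% of all tested genes were). UHRF2 and LURAP1L reached 1 FPKM in 1 control vector library and in all 3 labelled overexpression libraries, so they entered the test through the group where they were high. Without them, 6 of 44 members did not overlap, 4 higher and 2 lower (13.6%). The log2 fold changes were above 0 for 23 members (50%, against 56.8% of all tested genes) and below 0 for 23, with a range of -0.57 to 0.79. The 95% intervals had a median half-width of 0.49, a 1.40-fold change, and a range of half-widths from 0.21 to 0.91. They give the precision before adjustment, and the adjusted test asks for more than an interval that leaves out 0.

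By distance, no steady trend stood out. The median log2 fold change was -0.14 for the 4 tested genes within 1 Mb of CDKN2B-AS1, 0.17 for 9 genes at 1 to 5 Mb, 0.32 for 9 genes at 5 to 10 Mb and -0.05 for 24 genes at 10 to 22 Mb. Genes within 5 Mb (n = 13) had a median of 0.04 and those beyond (n = 33) of -0.01, a difference of 0.05 on the log2 scale. Spearman's rho between log2 fold change and distance was -0.10 over all 46, -0.09 over the 33 on the telomeric side and -0.33 over the 12 on the centromeric side. These correlations run across genes that share the same 6 libraries, and genes are not replicates. On the centromeric side the 4 genes within 5 Mb (TUSC1, CAAP1, PLAA and IFT74) had a median of 0.33, against -0.01 for 8 genes beyond. On the telomeric side the medians were 0.0055 for 8 genes within 5 Mb and 0.013 for 25 beyond. Without control vector library 2 the difference between near and far genes was -0.04, of the opposite sign. Adjacent tested members showed little likeness in their log2 fold changes, with a rho of 0.09 over 45 neighbouring pairs and 25 pairs of the same sign, beside a rho of 0.07 and 224 of 380 pairs over the rest of chromosome 9.

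**Figure D2:**
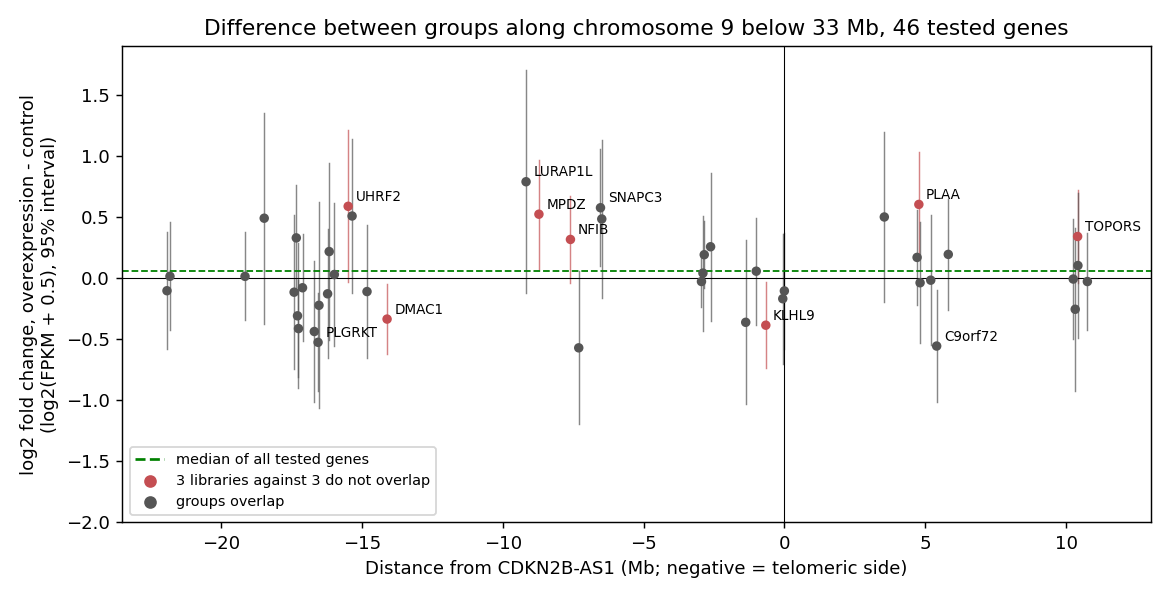
Log2 fold change, labelled overexpression minus control vector on log2(FPKM + 0.5), of the 46 tested genes by distance from CDKN2B-AS1 in Mb, with 95% intervals; red points are the 7 genes whose groups do not overlap. Of the points, 23 lie above 0 and 23 below, and LURAP1L is the highest at 0.79.

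Nearest to CDKN2B-AS1, 5 genes could be tested within 2 Mb. Of these only KLHL9 separated the groups, where 24.1% of all tested genes did so. The clone-named gene ENSG00000264545 (chr9:21802636-22029594) is the sole member whose span overlaps CDKN2B-AS1. It held 5.62, 6.44 and 9.68 FPKM with the control vector and 6.41, 5.73 and 7.55 FPKM under the overexpression label, with overlap, and a log2 fold change of -0.11 (95% interval -0.58 to 0.37). All of its 622 exon bases lie within exons of MTAP (460) or CDKN2B-AS1 (162), so its reads cannot be told from theirs.

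MTAP (chr9:21802636-21937651), the methylthioadenosine phosphorylase of methionine salvage, lies 0.0565 Mb away. It held 1.77, 2.26 and 2.91 FPKM against 1.59, 2.12 and 2.25 FPKM, with overlap. Its log2 fold change was -0.17 (95% interval -0.70 to 0.36, limma adjusted p 0.756), and -0.31 to -0.021 leaving out control vector library 1 or 3. KLHL9 (chr9:21329665-21335404, 0.659 Mb away), which helps direct Aurora B to its place in mitosis, held 9.40, 10.7 and 12.5 FPKM with the control vector and 8.60, 7.30 and 8.56 FPKM under the overexpression label. Each of the latter was below each of the former, with means of 10.9 ± 1.55 and 8.16 ± 0.738 FPKM (SD, n = 3). The log2 fold change was -0.39 (95% interval -0.74 to -0.04), which missed the threshold after limma's Benjamini-Hochberg adjustment (0.242).

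FOCAD (chr9:20658309-20995955, 0.998 Mb away), a focal adhesion protein, held 7.56, 5.83 and 7.53 FPKM against 5.997, 6.71 and 9.31 FPKM. MLLT3 (chr9:20341669-20622499, 1.37 Mb away), the AF9 reader of acylated histones in the super elongation complex, held 1.93, 2.02 and 1.14 FPKM against 0.679, 1.46 and 1.54 FPKM. Both overlapped between groups, with log2 fold changes of 0.06 and -0.36. That of MLLT3 was -0.11 without labelled overexpression library 1 and -0.56 without control vector library 3. The other members in this stretch were HACD4, DMRTA1 and 16 interferon genes, all listed at 0. Of the genes left out by name, RPS6, a ribosomal protein, passed limma's test with a log2 fold change of -0.47 and an adjusted p of 0.0451, whereas no gene of the table passed without control vector library 2 or without any 1 labelled overexpression library. CDKN2B, below the level for testing, held 0.0568, 0.0409 and 0.0475 FPKM against 0.0250, 0.0275 and 0.0264 FPKM, without overlap. Of all protein-coding genes below that level, 1.94% were lower in the same way. At such low levels the separation of CDKN2B is a description only. CDKN2A, which was tested, held 6.99, 5.15 and 4.65 FPKM against 5.07, 4.52 and 3.66 FPKM, with overlap. Its log2 fold change was -0.30 (limma adjusted p 0.476).

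The interferon genes were all listed at 0, with 0 of 17 tested. Of 7 immune signalling genes, 2 were tested, 3 were below the level and 2 were listed at 0. PLGRKT, a membrane receptor for plasminogen, held 19.9, 30.3 and 32.3 FPKM with the control vector and 18.05, 17.5 and 20.2 FPKM under the overexpression label. Control vector library 1 lay below labelled overexpression library 3, and the log2 fold change was -0.53 (95% interval -0.93 to -0.13, limma adjusted p 0.177). CD274, the PD-L1 checkpoint ligand, held 1.09, 0.788 and 0.903 FPKM against 1.22, 0.167 and 1.07 FPKM. DDX58, the RIG-I sensor of viral RNA, stayed below the level for testing at 0.503, 0.220 and 0.698 FPKM against 0.195, 0.468 and 0.188 FPKM. It shares 4471 exon bases with RP11-205M20.8, which are 90.5% of the exon bases of the latter. RP11-205M20.8 was tested and held 1.51, 0.896 and 1.83 FPKM against 1.04, 1.54 and 0.724 FPKM. How fragments were split between these genes is uncertain, and so is the level of DDX58. JAK2, the kinase of interferon and cytokine receptors, was at 0.493, 0.479 and 0.00583 FPKM against 0.179, 0.556 and 0.452 FPKM. IL33, an alarmin cytokine, was at 0.0954, 0 and 0.460 FPKM against 0.804, 2.04 and 0.295 FPKM. The groups overlap for JAK2, DDX58 and IL33.

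Chromatin and transcription factors numbered 17, of which 8 were tested, 0 passed, 6 had a log2 fold change above 0 (56.8% of all tested genes did), and the median was 0.41, against 0.05 over all tested genes. The groups did not overlap in 3 of them, all higher under the overexpression label, as 14.2% of all tested genes were. Without UHRF2, which entered the test through that group, the median of 7 was 0.34 and 2 separated. UHRF2, a ubiquitin ligase that reads modified cytosine, held 0.443, 1.06 and 0.567 FPKM against 1.27, 1.24 and 1.23 FPKM. TOPORS, a ubiquitin and SUMO ligase that binds topoisomerase I, held 7.04, 6.22 and 7.496 FPKM against 10.8, 7.81 and 8.27 FPKM. NFIB, a nuclear factor I transcription factor singled out after its values were seen, held 5.40, 4.69 and 5.04 FPKM against 5.73, 6.63 and 6.85 FPKM. The intervals of TOPORS (0.34, -0.04 to 0.72) and NFIB (0.32, -0.04 to 0.67) both included 0, and TOPORS was at 0.21 without labelled overexpression library 1. SNAPC3, a subunit of the complex that starts snRNA genes, held 8.06, 5.51 and 6.44 FPKM against 7.48, 10.9 and 12.5 FPKM, with control vector library 1 above labelled overexpression library 1. Its log2 fold change was 0.58 (95% interval 0.10 to 1.05, limma adjusted p 0.207). PSIP1, the LEDGF chromatin tether, held 3.84, 5.65 and 10.04 FPKM against 8.43, 10.4 and 7.40 FPKM and shares 140 exon bases with SNAPC3 on the opposite strand. Its log2 fold change of 0.48 was 0.19 without control vector library 1 and 0.83 without control vector library 3.

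Neuronal membrane, adhesion and synapse genes numbered 11, of which 4 were tested and 0 passed. MPDZ, a scaffold with many PDZ domains, held 2.24, 1.76 and 2.34 FPKM with the control vector and 3.00, 3.27 and 3.46 FPKM under the overexpression label. All of the latter exceeded all of the former, with means of 2.12 ± 0.310 and 3.24 ± 0.235 FPKM (SD, n = 3) and a log2 fold change of 0.52 (95% interval 0.08 to 0.97, limma adjusted p 0.219). LURAP1L held 0.123, 0.978 and 1.59 FPKM against 1.45, 1.899 and 1.63 FPKM, with overlap and the highest log2 fold change of the tested members, 0.79 (95% interval -0.13 to 1.70). Without control vector library 1, which held 17 fragments of it, that was 0.29. LINGO2, a leucine-rich repeat membrane protein, had a log2 fold change of 0.19, and of 0.069 without control vector library 3. Below the level for testing, PTPRD, a receptor phosphatase of synapses, was at 0.0753, 0.0030 and 0.0221 FPKM against 0.386, 0.177 and 0.258 FPKM. It rested on 51 and 308 fragments, a ratio of 7.32 scaled to depth (exact 95% interval 5.43 to 10.05, counting error only), and its groups did not overlap. Of the 51 fragments 39 came from control vector library 1, without which the ratio was 19.2.

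Of 26 members detected below the level for testing, 3 had groups that did not overlap, all higher under the overexpression label: PTPRD, TTC39B and ADAMTSL1. This is 11.5%, and of all protein-coding genes below that level 10.1% were higher and 1.94% lower in the same way. TTC39B was listed at 0 in every control vector library and at 0.140, 0.0720 and 0.164 FPKM under the overexpression label, and ADAMTSL1, a secreted matrix glycoprotein, was listed at 0 and at 0.0243, 0.0581 and 0.00152 FPKM. Set against 3 fragments over the control vector group, TTC39B (163 fragments) was 65.9-fold higher and ADAMTSL1 (26 fragments) 10.5-fold higher, for depth-scaled counts. These ratios take the pooled labelled overexpression count as exact and leave out the spread between libraries, so they are not lower bounds. Leaving out 1 library, they ran from 40.6 to 74.3 for TTC39B and from 5.12 (without labelled overexpression library 2) to 20.4 for ADAMTSL1. ADAMTSL1 had 1 fragment in labelled overexpression library 3, under its floor of 3. The exact two-sided permutation p was 0.1 for each of the 3 genes, the smallest possible, and they were singled out after their values were seen. With no filter, limma gave adjusted p-values of 0.247 for PTPRD, 0.202 for TTC39B and 0.608 for ADAMTSL1. Other low members varied between libraries of the same group: ACER2, an alkaline ceramidase, was at 0, 0.844 and 0.00831 FPKM against 0.197, 1.56 and 0.876 FPKM. FREM1, a basement membrane protein, was at 0.397, 0.162 and 1.45 FPKM against 0.0856, 0.526 and 0.488 FPKM. SMARCA2, the BRM ATPase of the SWI/SNF remodeler, was at 0.382, 0.135 and 0.233 FPKM against 0.118, 0.370 and 0.544 FPKM. In all 3 the groups overlapped.

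Metabolic and lipid enzymes numbered 12, of which 8 were tested, 0 passed, and 4 lay on each side of 0. DMAC1, an assembly factor of respiratory complex I, held 26.1, 27.0 and 22.9 FPKM against 20.1, 21.8 and 18.1 FPKM. Every labelled overexpression library was below every control vector library, and the log2 fold change was -0.34 (95% interval -0.62 to -0.05, limma adjusted p 0.212). AK3, the adenylate kinase of the mitochondrial matrix, held 12.4, 12.8 and 17.3 FPKM against 9.29, 9.58 and 12.6 FPKM, with overlap and a log2 fold change of -0.41 (95% interval -0.81 to -0.02), or -0.27 without control vector library 3. GLDC, the glycine decarboxylase of the glycine cleavage system, held 0.970, 1.96 and 2.08 FPKM against 3.24, 2.43 and 1.95 FPKM, with overlap and a log2 fold change of 0.51, or 0.25 without control vector library 1.

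A broad list headed ubiquitin, trafficking and lysosomal signalling held 15 genes, some of them with other roles. Of these, 14 were tested, 0 passed, and 6 lay above and 8 below 0. PLAA, a ubiquitin-binding partner of the VCP segregase, held 15.9, 11.4 and 19.1 FPKM with the control vector and 20.9, 21.8 and 27.5 FPKM under the overexpression label. The groups did not overlap, with means of 15.5 ± 3.88 and 23.4 ± 3.58 FPKM (SD, n = 3), and the log2 fold change was 0.60 (95% interval 0.17 to 1.03, SE 0.19, limma adjusted p 0.157). PLAA shares 108 exon bases with IFT74, whose own values, 1.898, 2.79 and 3.01 FPKM against 2.59, 2.19 and 2.58 FPKM, overlapped. C9orf72, an endosome and autophagy protein whose repeat expansion causes ALS and frontotemporal dementia, held 7.37, 8.70 and 8.71 FPKM against 4.74, 4.51 and 7.47 FPKM. Labelled overexpression library 3 reached past control vector library 1, and the log2 fold change was -0.56 (95% interval -1.01 to -0.10, limma adjusted p 0.203). ZDHHC21, a palmitoyltransferase singled out after its values were seen, had the lowest log2 fold change of the tested members, -0.57 (95% interval -1.20 to 0.05).

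The smaller lists held few tested genes, and 0 passed. In RNA processing and DNA repair PUM3, RCL1 and APTX, all tested, had log2 fold changes of 0.01, -0.08 and -0.03. RCL1, needed for 18S ribosomal RNA processing, held 12.7, 15.0 and 22.4 FPKM against 13.9, 15.9 and 16.3 FPKM, and APTX, a DNA end-repair protein, had a 95% interval of -0.43 to 0.37. HAUS6, of the augmin complex that nucleates spindle microtubules, had a log2 fold change of 0.04, and IFT74, of intraflagellar transport, of -0.04. RLN2, the relaxin hormone, held 2.63, 3.62 and 4.42 FPKM against 1.67, 2.86 and 3.00 FPKM, with overlap, and its near-identical copy RLN1 makes the split of fragments between them uncertain. TUSC1, in no list, held 3.02, 4.03 and 7.27 FPKM against 8.27, 7.61 and 4.42 FPKM, with overlap.

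**Figure D3:**
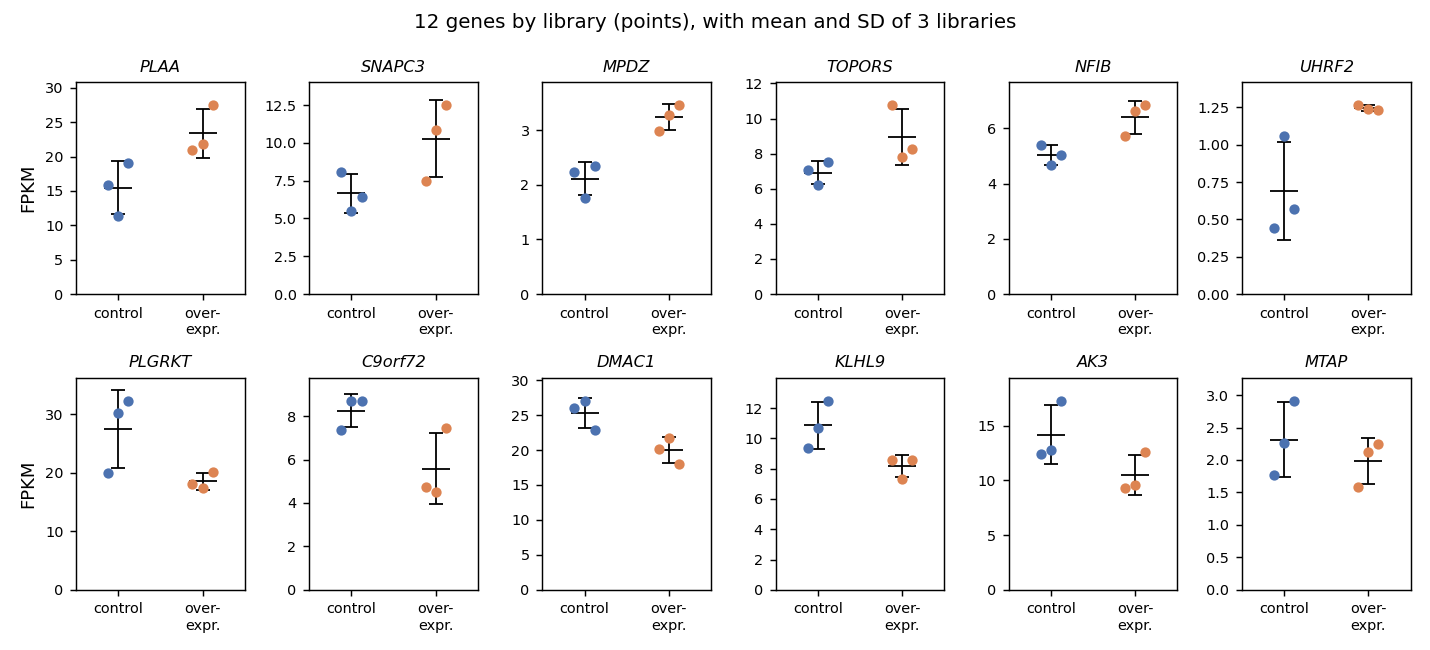
FPKM of 12 genes in the 3 control vector and the 3 labelled overexpression libraries (points), with mean and SD; axes start at 0. PLAA, MPDZ, TOPORS, NFIB and UHRF2 separate upward, DMAC1 and KLHL9 downward, and MTAP, AK3, PLGRKT, SNAPC3 and C9orf72 overlap.

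Libraries of the same group differed along these genes. Control vector library 3 was the highest of the 6 in 16 of 46 tested members and labelled overexpression library 3 in 11, while control vector library 2 and labelled overexpression library 2 were the highest in 2 each. The members' median deviation from their mean over libraries was -0.07, -0.06 and 0.14 log2 in control vector libraries 1, 2 and 3 and -0.02, -0.04 and 0.10 in the labelled overexpression libraries, where over all tested genes no library was beyond -0.02 or 0.04. Summed over members, FPKM was 411, 396 and 471 against 406, 413 and 463. In all, 32 members, of which 19 were tested, share exon bases with another gene. The labels and notes do not say whether counting used strand, so reads of such pairs cannot be told apart, and the IFNA genes, CBWD1, FOXD4 and WASHC1 have near-identical copies.

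As a set, the members lay at a median log2 fold change of 0.0024 (interquartile range -0.16 to 0.30), against 0.13 for 381 tested genes on the rest of chromosome 9, 0.07 for all tested protein-coding genes and 0.05 for all tested genes. The medians of the other 22 chromosomes ran from 0.02 (chromosome 21) to 0.13 (chromosome 4), and 0 of 22 lay below that of the members. Names starting with CDKN, RPS, NDUF, KCN or ELAVL were left out on chromosome 9 but kept on the other chromosomes. The tested genes left out below 33 Mb had log2 fold changes of -0.47 (RPS6), -0.30 (CDKN2A), -0.18 (ELAVL2) and -0.16 (NDUFB6). Against all tested genes the members' median was not lower in every fit, being higher by 0.028 without control vector library 3. The members numbered 46, against at least 103 tested genes on each of those chromosomes, and the difference was not tested.

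**Figure D4:**
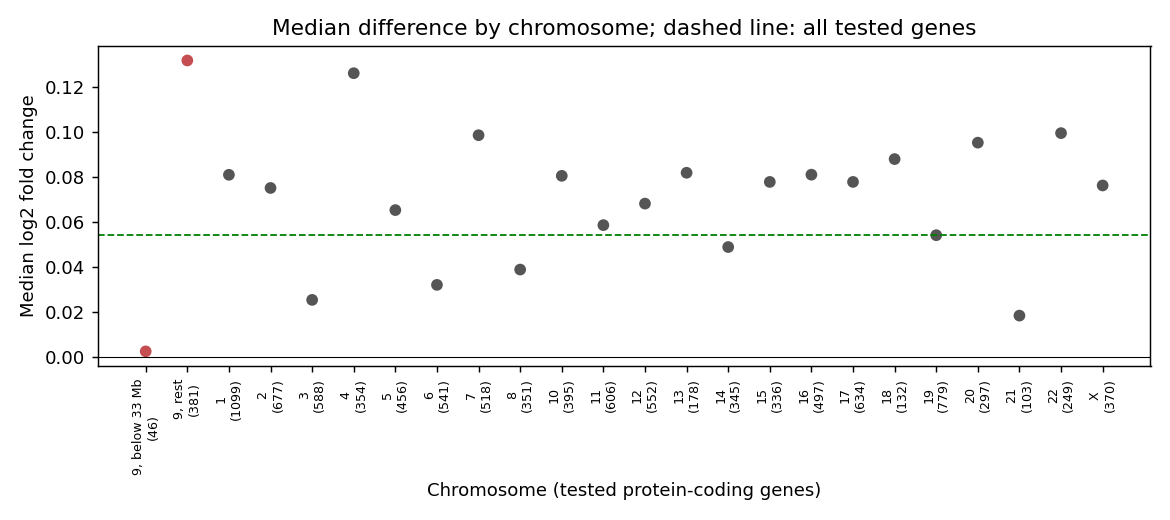
Median log2 fold change (labelled overexpression minus control vector) of tested protein-coding genes by chromosome, with the number of genes under each name; the dashed line is the median of all tested genes, 0.05. The 46 members lie lowest at 0.0024 and the rest of chromosome 9 highest at 0.13. Genes left out by name are missing on chromosome 9 only.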

How the data were processed

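The deposited values are FPKM for each gene in each of 6 libraries, per the file headers, from libraries made with a SMART-seq kit and read as paired ends, per the labels' protocols. Per the submitters' processing notes the authors used featureCounts 2.0.1 and STAR 2.7.9, with builds given as hg38 and GRCh38.p13. Fragment depth was recovered from the steps of the FPKM values (100% on steps of 0.01 fragments within 0.001), and 44.2% to 49.0% of values were whole. All genes with at least 1 FPKM in at least 3 of 6 libraries entered limma-trend (limma 3.58.1, R 4.3.3), fitted to log2(FPKM + 0.5) without a block, with Benjamini-Hochberg adjustment over 13984 genes at 0.05. Fold changes are on that scale, which understates the changes of low genes. The fit was tested on simulated data with the means, spreads and depths of these libraries. It recovered 5 of 50 genes changed 1.5-fold and 18 of 50 changed 2-fold. At 3-fold it recovered 32 of 50 and at 4-fold 42 of 50, with 4 false calls among 101.

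The members and lists were chosen with earlier results of these data known. Named were members passing the test, those within 2 Mb of CDKN2B-AS1, the 6 largest rises and 6 largest falls of tested members whose mean reached 2 FPKM in either group, the 4 highest, and up to 3 tested genes per list by smallest unadjusted p. Exon overlaps between genes come from the exon coordinates deposited with the FPKM values. Promoters come from RefSeq (GRCh38.p14), and the annotated exon bases within them from GENCODE v29. Alternatives covered the pseudocount, filter, scaling, trend, weights, limma-voom, the replicate block, left-out libraries and the definition of distance.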

Additional observations from a re-analysis of the deposited data

How the results depend on the processing

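Under each of the 17 alternative fits, 0 members passed, and the smallest adjusted p by limma was 0.0780. The count over all tested genes, 159 here, was 339 with a filter of 5 FPKM, 265 with array weights, 124 without control vector library 3, 3 without control vector library 1, and 0 in limma with no filter (3538 at an unadjusted p under 0.05), without the trend (2304), without control vector library 2 (2304) and without each labelled overexpression library (1665 to 2109), while limma-voom called 127. With the replicate number as a block it was 229, and 0 members passed. Same-numbered libraries had correlated deviations of -0.02, 0.11 and 0.12, and control vector library 1 did not correlate best with its own number, so the numbers were not taken to pair the libraries.

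The median log2 fold change of the members was 0.10 with each library scaled to a common total, which moved the median of all tested genes by 0.10, -0.094 with a trend on gene length removed (chosen after seeing the data), and -0.068 (without labelled overexpression library 3) to 0.079 (without control vector library 3) leaving out 1 library. It was below that of the rest of chromosome 9 by 0.036 to 0.21 in every fit. Against the median of all tested genes it changed sign, from 0.05 lower here to higher by 0.017 with the filter of 5 FPKM, by 0.028 without control vector library 3 and by 0.0024 without labelled overexpression library 2. Spearman's rho with distance was -0.19 with the filter of 5 FPKM, -0.068 with limma-voom, -0.072 with the length trend removed and -0.12 to -0.061 leaving out 1 library. The difference between near and far genes was -0.18 at a limit of 2 Mb, 0.17 at 10 Mb and -0.036 (without control vector library 2) to 0.043 leaving out 1 library. Groups did not overlap in 11 members with median-of-ratios factors and in 9 to 15 leaving out 1 library (15 without control vector library 1, 14 without its library 3, and 12 and 15 without labelled overexpression libraries 2 and 3), where fewer libraries have to separate. The shares over all tested genes in those fits were not computed, so these counts have no background and show no gain particular to the members. The cause of the other changes was not tested.

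Of 465 values for 28 named genes, 438 kept direction and side, and 27, in 9 genes, had the opposite sign. With the common total RCL1 was 0.028, RRAGA 0.082, IFT74 0.054 and APTX 0.070. With median-of-ratios factors PUM3 was -0.033 and HAUS6 -0.0033, and with array weights PUM3 was -0.0071, FOCAD -0.032 and IFT74 0.014. With the length trend removed RRAGA was 0.0036, HAUS6 -0.088 and FOCAD -0.11. Leaving out 1 library in turn gave ranges of -0.099 to 0.17 for PUM3, -0.25 to 0.15 for RCL1, -0.47 to 0.21 for CD274, -0.065 to 0.00072 for RRAGA, -0.14 to 0.26 for HAUS6, -0.12 to 0.18 for FOCAD, -0.26 to 0.11 for the gene overlapping CDKN2B-AS1, -0.21 to 0.069 for IFT74 and -0.084 to 0.072 for APTX.

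Precision was set by the spread of 3 libraries a group. Members below the level for testing often varied between libraries of a group, and 32 members listed at 0 are known only to lie under their floors.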
